A study of Sus scrofa with 12 samples.

Results

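Genes that pig breeding genetics has tied to prolificacy were followed in the ovary of sows that differ in litter size. The 10 genes, RBP4, LIF, EPOR, FUT1, CFB, GNRHR, NCOA1, MUC4, AHR and LEPR, were chosen by their symbols, and all 10 are among the 29884 genes measured. Total RNA without ribosomal RNA was sequenced from the left ovary of 3 sows with small litter size (SLS: ZD2, ZD3, ZD12) and of 3 sows with large litter size (LLS: ZD5, ZD7, ZD8), as 1 library for each ovary. The groups averaged 8.48 ± 0.53 and 16.19 ± 0.43 piglets per litter, where ± is the SEM if the general statement in the study's methods covers these values. All sows came from 1 commercial piggery and were slaughtered 4 days after delivery number 4, without any treatment named in the labels, and neither breed nor age is given in the labels. Levels are FPKM, reads per transcript length and per library depth, so that levels of different genes can be set side by side per length.

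The candidates act at different places in reproduction. GnRH from the hypothalamus sets the release of gonadotropins, which drive follicles to grow and ovulate, and leptin reports energy stores to the same axis. After ovulation the follicle becomes the corpus luteum, whose progesterone prepares the uterus for the embryos. Litter size depends on how many eggs are ovulated and how many embryos survive, so a gene can be tied to it through the pituitary, the uterus, the embryo or the gut of the piglet as well as through the ovary.

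The libraries held between 32272803 reads (ZD8) and 60903268 reads (ZD2). Genes of steroid-producing luteal cells were high in every ovary except ZD8: the 6 luteal markers summed to between 9167 and 12191 FPKM in the other 5 ovaries and to 123 FPKM in ZD8, where each of the 6 was lowest. The 4 theca markers and 9 of the 10 oocyte markers were highest in ZD8. ZD8 was also the gene library least like the rest, with an average Spearman correlation of 0.765 where the others had 0.903 to 0.920, and the least alike small RNA library, with 0.936 where the others had 0.957 to 0.970. For the candidates, values are therefore also given without ZD8. In a whole ovary, fewer cells of a type cannot be told apart from less RNA per cell.

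Across genes, limma with a trended variance on log2(FPKM + 1) was run over the 12260 genes with at least 1 FPKM in at least 3 ovaries, and calls required an adjusted p under 0.05 together with a log2 fold change beyond 1 in either direction. Of the 10 candidates, 7 reached this level, and RBP4, GNRHR and MUC4 did not. None of the 7 was called, and 0 of the 12260 genes were called (0%), of which 216 had an unadjusted p under 0.05 (1.76%). Among the 7, 2 had an unadjusted p under 0.05, FUT1 and CFB, both lower in LLS, a direction in which 148 of all tested genes passed the same bound (1.21%). In either direction, 0 of the 7 passed it without ZD2 (101 of all tested genes) and 0 without ZD12 (149 of all). Without ZD5 the count was 1 (171 of all), without ZD3 2 (198), without ZD8 2 (721) and without ZD7 3 (326). The 7 fold changes had a median of -0.24 on the log2 scale, against 0.02 over all tested genes, with 3 above 0 and 4 below. Without ZD8 their median was -0.037, against -0.099 over all tested genes, again with 3 above 0 and 4 below. No candidate was called on the recovered reads either, where edgeR's quasi-likelihood test called 0 of 12245 genes (0%) and DESeq2 called 20 of the 12199 with an adjusted p (0.164%). An exact permutation test of 3 ovaries against 3 cannot go below p = 0.1, and its p is given for each candidate below.

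By median level over the 6 ovaries, AHR led with 17.7 FPKM, and LIF (9.91), NCOA1 (9.72) and FUT1 (9.03) followed close together. LEPR (1.40), CFB (1.37) and EPOR (1.07) stood near 1 FPKM, and RBP4 (0.233), MUC4 (0.0611) and GNRHR (0) were below it. Neighbours in this order overlapped in their range over the ovaries, with 2 exceptions. FUT1 lay above LEPR in every ovary compared (at least 6.62 FPKM against at most 3.81), and EPOR above RBP4 by a small margin (at least 0.949 FPKM against at most 0.926).

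**Figure D1:**
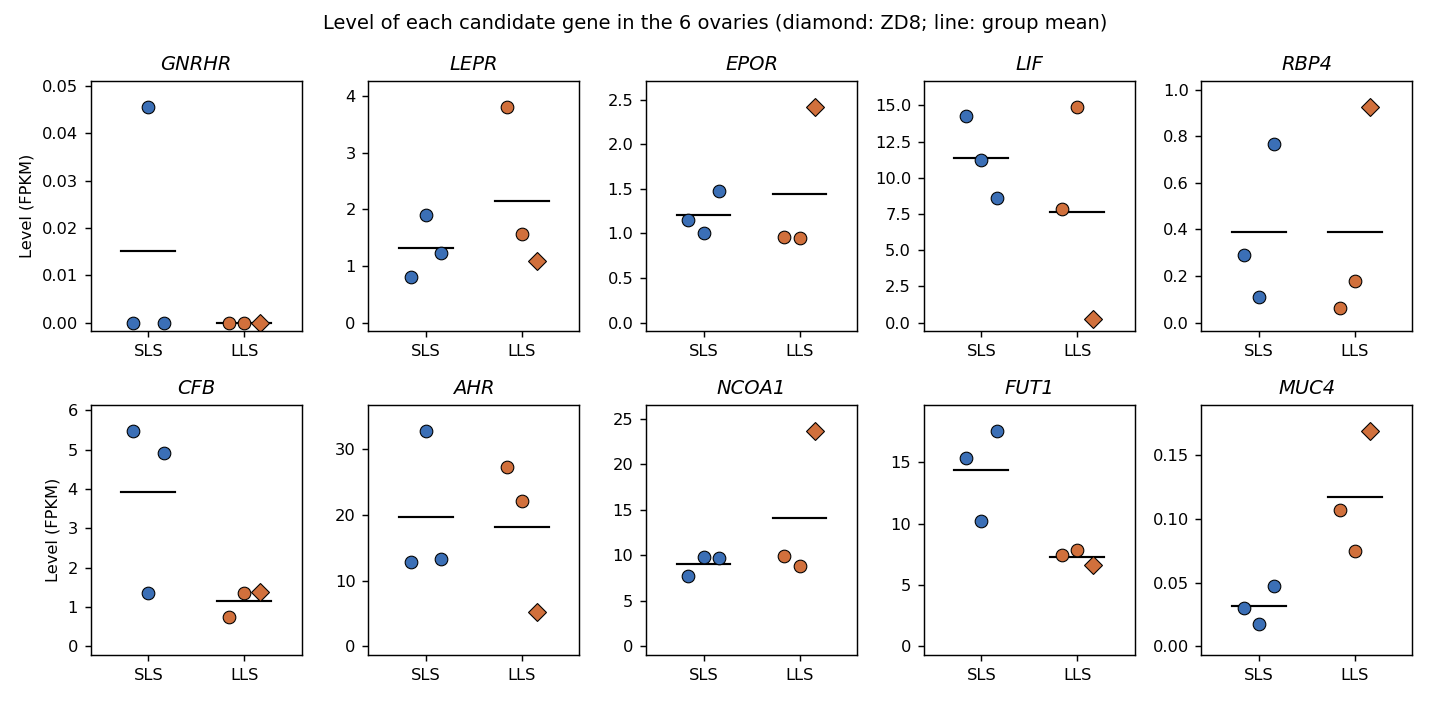
Level in FPKM (y axis, a separate linear scale for each gene) of the 10 candidate genes in the SLS and LLS ovaries. Each point is 1 ovary, the diamond is ZD8 and the line is the group mean; the groups do not overlap for FUT1 and MUC4, and ZD8 is the extreme ovary for LIF, EPOR, RBP4, AHR, NCOA1, FUT1 and MUC4.

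GNRHR encodes the receptor through which GnRH acts on the gonadotropes of the pituitary. The gene lies on the minus strand of chromosome 8 (chr8:65470206-65488900, Sscrofa11.1), and its longest annotated transcript of 6362 nt was the length behind its FPKM. It was at 0 reads in ZD2 and ZD12, at 15 reads (0.0456 FPKM) in ZD3 and at 0 reads in ZD5, ZD7 and ZD8. Only 1 ovary thus held any reads, no fold is given, and the exact test gave p = 1. A count of 0 allows a level of up to 3 reads, which are 0.00774 FPKM in ZD2 and 0.0146 FPKM in ZD8, the shallowest library. The end of the gene overlaps the start of UBA6, an enzyme of ubiquitin transfer on the same strand, over 624 bases, and UBA6 was also highest in ZD3, at 12.9 FPKM against 5.58 to 8.998 FPKM in the other ovaries. The part of UBA6 in the 15 reads was not tested.

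The partners of GNRHR in the pathway list were its ligand GNRH1 and GNAQ, the G protein subunit that couples the receptor to phospholipase C. GNRH1 was above 0 in ZD5 and ZD8 only, at 3 and 4 reads (0.130 and 0.309 FPKM), at or near the floor of 3 reads. GNAQ was at 29.3, 37.6 and 29.2 FPKM in the SLS ovaries and at 34.8, 28.8 and 45.6 FPKM in the LLS ovaries, so the groups overlapped. Of the 22 genes of GnRH signalling, 18 were tested, 0 were called, and their median log2 fold change was 0.02. The smallest p in this list was that of EGR1, an immediate early transcription factor that GnRH induces in the pituitary. EGR1 was at 54.9, 57.5 and 11.4 FPKM in SLS and at 109, 68.6 and 122 FPKM in LLS. All LLS ovaries were above all SLS ovaries, with a log2 fold change of 1.52 ± 0.60 (SE) and an adjusted p of 0.999 by limma.

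LEPR encodes the leptin receptor, through which the fat hormone leptin signals by JAK2 and STAT3. It lies on the minus strand of chromosome 6 (chr6:146802297-146896152), with 7 annotated transcripts. LEPR was at 0.809, 1.90 and 1.24 FPKM in ZD2, ZD3 and ZD12, and at 3.81, 1.56 and 1.09 FPKM in ZD5, ZD7 and ZD8. ZD5 was the highest of all ovaries and the other LLS ovaries lay inside the SLS range, so the groups overlapped. The means were 1.32 ± 0.551 FPKM in SLS and 2.15 ± 1.46 FPKM in LLS (SD, n = 3 each). The log2 fold change was 0.38 ± 0.38 (SE), with an adjusted p of 0.999 by limma and p = 0.5 in the exact test. Without ZD5 it was 0.025, and without ZD8 it was 0.63 ± 0.33 (SE, adjusted p = 0.973).

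Leptin itself (LEP) was below 0.05 FPKM in every ovary, from 0 in ZD2, ZD7 and ZD8 to 0.0479 FPKM in ZD5. LEPROT, which shares a promoter with LEPR in humans and limits the receptor at the cell surface, was at 63.7, 73.1 and 79.4 FPKM in SLS. In LLS it was at 68.4, 66.5 and 43.2 FPKM, with ZD8 lowest and the groups overlapping. Of the 18 genes of the leptin and adiponectin list, 16 were tested and 0 were called, with a median log2 fold change of -0.02. CDH13, a cadherin that binds adiponectin, had the smallest p and was at 11, 10.9 and 9.93 FPKM in SLS and at 4.82, 8.86 and 6.74 FPKM in LLS. Its groups did not overlap, with a log2 fold change of -0.61 ± 0.28 (SE) and an adjusted p of 0.999 by limma.

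EPOR encodes the receptor of erythropoietin, which keeps red cell precursors alive and has been tied to uterine capacity in pigs through blood supply to the fetus. Its place is the minus strand of chromosome 2 (chr2:70063601-70068821). EPOR was at 1.15, 1.0 and 1.48 FPKM in the SLS ovaries, from 94 to 142 reads, and at 0.955, 0.949 and 2.42 FPKM in the LLS ovaries, from 100 to 142 reads. ZD8 was the highest of all 6 while ZD5 and ZD7 were the lowest, so the LLS ovaries surrounded the SLS ovaries. The means were 1.21 ± 0.244 FPKM in SLS and 1.44 ± 0.848 FPKM in LLS (SD, n = 3 each). LLS over SLS gave a log2 fold change of 0.10 ± 0.32 (SE), with an adjusted p of 0.999 by limma and p = 1 in the exact test, and it was -0.17 ± 0.24 (SE) without ZD8. ZD8 decided the sign.

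The ligand EPO was listed at 0 in all 6 ovaries. JAK2, the kinase that carries the signal of EPOR and LEPR, was at 4.98, 11.6 and 7.46 FPKM in SLS and at 9.77, 6.74 and 7.69 FPKM in LLS, so the groups overlapped. Of the 18 genes of the erythropoietin list, 13 were tested and 0 were called, with a median log2 fold change of -0.02. The smallest p was that of TFRC, the transferrin receptor that brings iron into cells, at 24.2, 37.7 and 21.0 FPKM in SLS and at 62.7, 50.2 and 30.5 FPKM in LLS. Its groups overlapped through ZD3 and ZD8, and its log2 fold change was 0.75 ± 0.36 (SE, adjusted p = 0.999). The red cell markers summed to between 53.9 and 320 FPKM in SLS and between 29.2 and 161 FPKM in LLS, most of it HBB. EPOR was highest in ZD8, the ovary with the lowest sum. Of the 7 red cell markers, 3 were lowest in ZD8 and 1 was highest there (EPB42, 0.260 FPKM). The part of red cells in the EPOR values was not tested.

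LIF, leukaemia inhibitory factor, is a cytokine of the interleukin 6 family that the uterus needs for implantation. The gene lies on the minus strand of chromosome 14 (chr14:47221540-47239513). LIF was at 14.3, 11.2 and 8.61 FPKM in ZD2, ZD3 and ZD12, at 7.82 and 14.9 FPKM in ZD5 and ZD7, and at 0.233 FPKM in ZD8. In reads these were 5215, 3474 and 2728 in SLS, 2698 and 5432 in ZD5 and ZD7, and 45 in ZD8. The other 5 ovaries thus lay close together across both groups, and ZD8 stood 33.6 times below the lowest of them. Among the candidates that were above 0 in every ovary, LIF had the widest range, with 64.0 times between its highest and lowest ovary.

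The means of LIF were 11.4 ± 2.85 FPKM in SLS and 7.65 ± 7.33 FPKM in LLS (SD, n = 3 each), or 11.4 FPKM over ZD5 and ZD7. The log2 fold change was -1.13 ± 0.82 (SE), with an adjusted p of 0.999 by limma and p = 0.5 in the exact test. Without ZD8 it was -0.037 ± 0.32 (SE, adjusted p = 0.9996). ZD8 was the ovary in which the luteal markers were also lowest, and the part of luteal tissue in it was not tested. ADAMTS4, a protease of the extracellular matrix, had the pattern most like LIF over the 6 ovaries, with a Pearson correlation of 0.997 (0.952 without ZD8), and 344 of 12259 genes were above 0.95, a description over 6 libraries that include ZD8.

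IL6ST, the gp130 chain that LIF shares with its relatives as a receptor, was at 59.3, 188 and 64.5 FPKM in SLS and at 219, 121 and 37.6 FPKM in LLS. The groups overlapped widely. The receptor chain LIFR was not analysed here. Of the 22 genes of this list 17 were tested and 0 were called, with a median log2 fold change of 0.0036. CLCF1, another cytokine of the family, had the smallest p, at 2.38, 1.62 and 1.69 FPKM in SLS and at 0.926, 1.45 and 0.630 FPKM in LLS. Its groups did not overlap, with a log2 fold change of -0.54 ± 0.29 (SE) and an adjusted p of 0.999 by limma.

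**Figure D2:**
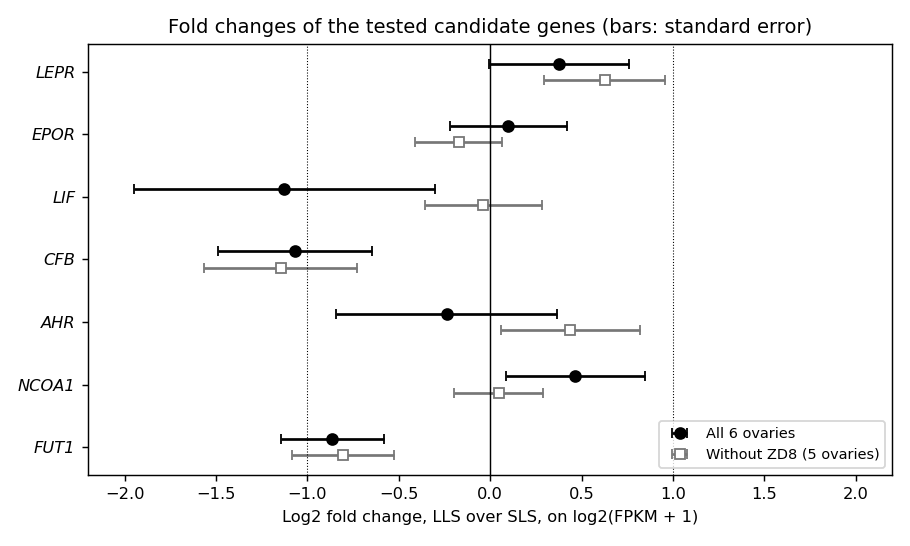
Log2 fold change of LLS over SLS on the scale of log2(FPKM + 1) (x axis) for the 7 tested candidate genes, with all 6 ovaries (filled circles) and without ZD8 (open squares); bars are standard errors and dotted lines mark the fold change threshold of 1. FUT1 and CFB stay below 0 in both, LIF moves from -1.13 to -0.037, and EPOR and AHR change sign.

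RBP4 is the plasma carrier of retinol, and the pig conceptus secretes it as it elongates. The gene lies on the minus strand of chromosome 14 (chr14:105037360-105044552), inside PDE6C, a phosphodiesterase gene of the retina on the other strand. RBP4 was at 0.288, 0.112 and 0.766 FPKM in SLS, from 94, 31 and 217 reads, and at 0.0617, 0.178 and 0.926 FPKM in LLS, from 19, 58 and 160 reads. ZD8 and ZD12 were highest and ZD5 was lowest, so the groups overlapped over nearly their whole range. The means were 0.389 ± 0.338 FPKM in SLS and 0.389 ± 0.469 FPKM in LLS (SD, n = 3 each), with p = 0.9 in the exact test. Without ZD8 the LLS mean was 0.120 FPKM. PDE6C was also highest in ZD8, where it reached 1.07 FPKM (0 to 0.126 FPKM elsewhere), and its part in the RBP4 reads was not tested. The longest annotated RBP4 transcript, 5352 nt, set the length behind these values.

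TTR, the plasma partner that holds RBP4 in the circulation, was above 0 in ZD12 only, at 2 reads (0.0648 FPKM). There 3 reads are worth 0.0972 FPKM. STRA6, the membrane receptor that takes retinol from RBP4, was at 3.79, 0.596 and 2.80 FPKM in SLS and at 0.921, 1.88 and 6.13 FPKM in LLS, so the groups overlapped. Of the 26 retinoid genes, 16 were tested and 0 were called, with a median log2 fold change of 0.03. Without ZD8 the median was -0.21, with 5 above 0 and 11 below. ALDH1A1, which makes retinoic acid from retinal, had the smallest p and was at 1.70, 0.875 and 3.01 FPKM in SLS. In LLS it was at 7.88, 3.23 and 8.21 FPKM, above every SLS ovary, with a log2 fold change of 1.36 ± 0.42 (SE) and an adjusted p of 0.999 by limma.

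CFB is complement factor B, the protease that forms the C3 convertase of the alternative complement pathway. It lies on the plus strand of chromosome 7 (chr7:24034077-24040523). CFB was at 5.49, 1.36 and 4.92 FPKM in ZD2, ZD3 and ZD12, from 881, 185 and 686 reads. In ZD5, ZD7 and ZD8 it was at 0.758, 1.35 and 1.38 FPKM, from 115, 216 and 117 reads. ZD2 and ZD12 stood above all LLS ovaries, whereas ZD3 lay among them, so the groups overlapped. The exact 95% Poisson interval, which covers counting error only, was 1.17 to 1.57 FPKM for ZD3 and 1.14 to 1.65 FPKM for ZD8, so that these 2 ovaries could not be told apart at this depth.

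The mean of CFB was 3.92 ± 2.24 FPKM in SLS and 1.16 ± 0.348 FPKM in LLS (SD, n = 3 each), 3.38 times lower in LLS. The log2 fold change was -1.07 ± 0.42 (SE), past the threshold of 1, with an unadjusted p of 0.0343 and an adjusted p of 0.999 by limma. The exact test gave p = 0.2. The unadjusted p by limma was 0.129 without ZD2, 0.118 without ZD12 and 0.0943 without ZD5, and under 0.05 without each of the others. The fold change was -1.14 ± 0.42 (SE, adjusted p = 0.618) without ZD8, -0.80 without ZD2, -0.87 without ZD12 and -1.53 without ZD3. It was -0.93 without ZD5, short of the threshold, and -1.14 without ZD7. On the recovered reads, where no pseudocount of 1 FPKM is added, it was -1.74 by edgeR (adjusted p = 0.9996) and -1.76 by DESeq2 (adjusted p = 0.472). Like CFB, 7 of the 13 marker lists were lowest in ZD3 among the SLS ovaries, and the part of any cell type in the CFB values was not tested.

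The partners of CFB in the alternative pathway are its substrate, its activator and a stabiliser. C3, its substrate, was at 139, 81.6 and 238 FPKM in SLS and at 57.6, 136 and 219 FPKM in LLS. CFD, the protease that activates factor B, was at 14.1, 7.75 and 22.02 FPKM in SLS and at 5.08, 8.91 and 35.4 FPKM in LLS. CFP, properdin, which stabilises the convertase, was at 2.88, 1.36 and 1.10 FPKM in SLS and at 1.35, 2.39 and 2.05 FPKM in LLS. For all 3 the groups overlapped, with log2 fold changes of -0.22 ± 0.57, -0.16 ± 0.65 and 0.11 ± 0.33 (SE). Of the 17 genes of this list 15 were tested and 0 were called, with a median log2 fold change of -0.16. C3AR1, the receptor of the C3a fragment, had the smallest p, at 4.37, 3.55 and 3.36 FPKM in SLS and at 11.9, 6.75 and 4.11 FPKM in LLS, with overlap through ZD8 and a log2 fold change of 0.75 ± 0.37 (SE, adjusted p = 0.999). Without ZD8 it was 1.08 by limma (adjusted p = 0.302) and 1.40 by DESeq2 (adjusted p = 0.0118), a fit chosen after seeing the data that called 197 of 12242 genes (1.61%), whereas edgeR without ZD8 called 0 of 12245.

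AHR is the ligand-activated transcription factor that senses dioxins and natural indoles and pairs with ARNT on DNA. Its place is the plus strand of chromosome 9 (chr9:86511866-86555950). AHR was at 12.8, 32.9 and 13.3 FPKM in ZD2, ZD3 and ZD12, and at 27.3, 22.1 and 5.26 FPKM in ZD5, ZD7 and ZD8. ZD3 was the highest ovary and ZD8 the lowest, with the other LLS ovaries inside the SLS range. The means were 19.7 ± 11.4 FPKM in SLS and 18.2 ± 11.5 FPKM in LLS (SD, n = 3 each). LLS over SLS gave a log2 fold change of -0.24 ± 0.60 (SE), with an adjusted p of 0.999 by limma and p = 0.8 in the exact test. It was 0.44 ± 0.38 (SE) without ZD8 and 0.18 without ZD3, so each of these ovaries decided the sign.

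ARNT was at 22.7, 23.3 and 25.7 FPKM in SLS and at 22.4, 27.0 and 30.7 FPKM in LLS, so the groups overlapped. AHRR, the repressor that AHR induces, was at 0, 0.0147 and 0.0164 FPKM in SLS and at 0.0339, 0.0409 and 0.0571 FPKM in LLS, without overlap but far below the level required for the test. CYP1A1, a target of AHR named here after its values were seen, went the other way at such levels, with 0.0459, 0.0406 and 0.0793 FPKM in SLS and 0, 0.00574 and 0 FPKM in LLS. CYP1B1, a target of AHR, was not analysed here. Of the 19 genes of this list 13 were tested and 0 were called, with a median log2 fold change of -0.01. The smallest p was that of GSTA1, a glutathione transferase, at 413, 400 and 342 FPKM in SLS, 383 and 801 FPKM in ZD5 and ZD7 and 13.9 FPKM in ZD8. All ovaries but ZD8 were high, and its log2 fold change was -1.21 ± 1.28 (SE, adjusted p = 0.999). DPP4, a cell surface peptidase, had the pattern most like AHR, with a Pearson correlation of 0.9999 over the 6 ovaries, at 0.723 to 2.68 FPKM.

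NCOA1, also called SRC-1, is a coactivator that steroid receptors recruit to their target genes. Its place is the minus strand of chromosome 3 (chr3:113997214-114251080), the longest gene of the 10 at 254 kb. NCOA1 was at 7.77, 9.76 and 9.68 FPKM in SLS and at 9.87, 8.85 and 23.7 FPKM in LLS. The other 5 ovaries stood within 7.77 to 9.87 FPKM, and ZD8 was 2.40 times above the highest of them. The means were 9.07 ± 1.13 FPKM in SLS and 14.1 ± 8.29 FPKM in LLS (SD, n = 3 each), and 9.36 FPKM over ZD5 and ZD7. LLS over SLS gave a log2 fold change of 0.46 ± 0.38 (SE), with an adjusted p of 0.999 by limma and p = 0.4 in the exact test, and it was 0.046 ± 0.24 (SE) without ZD8.

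NCOA2 and NCOA3 are sister coactivators of the same family. NCOA2 was at 7.19, 9.57 and 8.37 FPKM in SLS and at 8.96, 7.85 and 19.4 FPKM in LLS. NCOA3 was at 18.2, 21.5 and 17.5 FPKM in SLS and at 21.5, 21.7 and 31.4 FPKM in LLS. In both, ZD8 was the highest ovary and the groups overlapped. Of the 23 coregulators and receptors listed 21 were tested and 0 were called, with 16 fold changes above 0 and 5 below and a median of 0.20 on the log2 scale. Without ZD8, 5 were above 0 and 16 below, with a median of -0.13. NCOA4, which binds ferritin for its breakdown besides its coactivator role, had the smallest p and went the other way. It was at 42.8, 68.4 and 64.0 FPKM in SLS and at 37.1, 26.8 and 21.3 FPKM in LLS, without overlap, with a log2 fold change of -1.02 ± 0.32 (SE) and an adjusted p of 0.999 by limma. TAF1, a subunit of the general transcription factor TFIID, had the pattern most like NCOA1 (Pearson correlation 0.998 over 6 ovaries, 0.973 without ZD8).

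**Figure D3:**
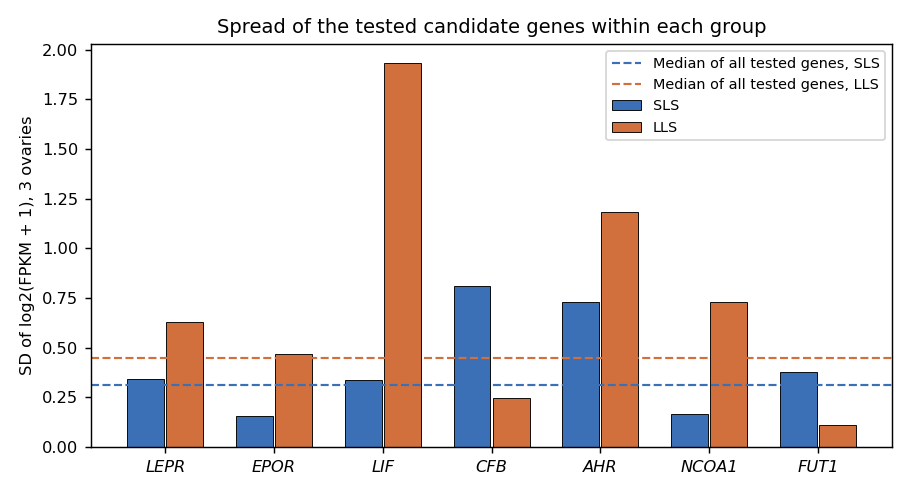
SD of log2(FPKM + 1) over the 3 ovaries of each group (bars) for the 7 tested candidate genes, with the median SD of all 12260 tested genes in SLS (0.31) and LLS (0.45) as dashed lines. LIF and AHR spread most among the LLS ovaries (1.93 and 1.18), CFB most among the SLS ovaries (0.81), and FUT1 least among the LLS ovaries (0.11).

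The spread within a group differed among the candidates. On the scale of log2(FPKM + 1), the SD over the 3 LLS ovaries, ZD8 among them, was 1.93 for LIF, 1.18 for AHR and 0.73 for NCOA1, above the median of 0.45 over all tested genes. For FUT1 and CFB it was 0.11 and 0.25 in LLS, below that median, whereas in SLS it was 0.38 and 0.81, above the median of 0.31. FUT1 and CFB were thus more even among LLS ovaries than among SLS ovaries, and the other 5 tested candidates were more even among SLS ovaries. These are descriptions of 3 ovaries each, and the difference of spread was not tested.

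FUT1 adds fucose to galactose to make the H antigen, and in pigs it has also been tied to the receptors of enterotoxigenic E. coli in the gut of piglets. It lies on the minus strand of chromosome 6 (chr6:54077431-54080475), with 1 annotated transcript of 2485 nt. FUT1 was at 15.3, 10.2 and 17.6 FPKM in ZD2, ZD3 and ZD12, from 2321, 1315 and 2311 reads. In ZD5, ZD7 and ZD8 it was at 7.40, 7.83 and 6.62 FPKM, from 1059, 1185 and 531 reads. All 3 LLS ovaries were thus below the lowest SLS ovary, and ZD8 stood with the other LLS ovaries. Among the 12260 tested genes, 389 had all LLS ovaries below all SLS ovaries (3.17%), and FUT1 was the only one of the 7 tested candidates to do so.

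The mean of FUT1 was 14.4 ± 3.76 FPKM in SLS and 7.28 ± 0.614 FPKM in LLS (SD, n = 3 each), 1.97 times lower in LLS. The log2 fold change was -0.86 ± 0.28 (SE), short of the threshold of 1, with an unadjusted p of 0.0151 and an adjusted p of 0.999 by limma. The exact test gave p = 0.1, the smallest that 3 against 3 allows. Leaving out each ovary in turn gave between -1.07 and -0.71, and without ZD8 the value was -0.81 ± 0.28 (SE, adjusted p = 0.549). The unadjusted p by limma was 0.0538 without ZD2 and 0.0759 without ZD12, and under 0.05 without each of the others. The difference did not pass the correction over all genes with any of these settings.

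FUT1 overlaps the predicted gene LOC110261360 on the same strand over 307 bases at its start, and that gene was at 4.73, 2.46 and 6.76 FPKM in SLS and at 3.23, 1.41 and 1.74 FPKM in LLS, with overlapping groups. It held 38 to 242 reads, against 531 to 2321 for FUT1. How the counting divided shared reads is not given in the sources used here. The 6 granulosa markers also summed to less in every LLS ovary (130 to 300 FPKM) than in any SLS ovary (387 to 772 FPKM), most of it INHA, while FSHR, AMH and FOXL2 of that list were highest in ZD8. The part of granulosa cells in the FUT1 values was not tested. SLC16A3, a lactate transporter, had the pattern most like FUT1, with a Pearson correlation of 0.985 over the 6 ovaries (0.980 without ZD8).

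FUT2, the sister enzyme that makes the H antigen in secretions, was far lower, at 0.0213, 0.1002 and 0.220 FPKM in SLS and at 0.105, 0.0142 and 0.134 FPKM in LLS. SLC35C1, which carries GDP-fucose into the Golgi, was at 6.90, 4.85 and 5.49 FPKM in SLS and at 5.05, 5.86 and 2.91 FPKM in LLS. The groups of both overlapped. Of the 21 genes of fucosylation 14 were tested and 0 were called, with a median log2 fold change of 0.0054. Without ZD8 the median was -0.18, with 3 above 0 and 11 below. The smallest p was that of FUCA2, a fucosidase that removes fucose, at 21.6, 27.4 and 24.0 FPKM in SLS and at 16.1, 19.8 and 23.5 FPKM in LLS, with a log2 fold change of -0.29 ± 0.26 (SE, adjusted p = 0.999).

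The bases before the start of the longest annotated transcript are shown for the candidates with the smallest p, FUT1 and CFB, and for LIF, the candidate with the widest range over the ovaries. Each run holds 200 bases, 5′ to 3′ on the strand of the gene, from the Sscrofa11.1 reference at chr6:54080476-54080675 (FUT1, minus strand), chr7:24033877-24034076 (CFB, plus strand) and chr14:47232136-47232335 (LIF, minus strand). The window of FUT1 lies inside LOC110261360. That of LIF lies inside the annotated span of LIF itself, which reaches to chr14:47239513. Of the windows searched but not shown, those of NCOA1 and RBP4 also lie inside their own genes, and that of LEPR does in part. Capitals mark GCGTG, the core letters that AHR and ARNT bind, the DNA sequence tied to another of the candidates.
FUT1: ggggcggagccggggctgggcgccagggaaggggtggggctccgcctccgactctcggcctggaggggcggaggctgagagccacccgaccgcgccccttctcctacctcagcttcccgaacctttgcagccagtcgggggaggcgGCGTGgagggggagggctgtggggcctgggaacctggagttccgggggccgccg
CFB: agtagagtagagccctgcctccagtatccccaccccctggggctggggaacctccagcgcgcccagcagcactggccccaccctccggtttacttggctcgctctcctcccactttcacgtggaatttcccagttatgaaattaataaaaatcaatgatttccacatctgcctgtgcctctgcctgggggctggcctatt
LIF: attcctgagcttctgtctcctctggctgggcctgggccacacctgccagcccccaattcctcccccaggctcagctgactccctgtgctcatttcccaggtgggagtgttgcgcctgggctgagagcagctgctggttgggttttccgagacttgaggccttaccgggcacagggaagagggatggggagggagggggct
GCGTG was searched on both strands, and so were AAGGTCA, a letter core of NR5A1, the regulator of steroid-making cells, and TTCNNNGAA, the STAT core used by LIF, leptin and erythropoietin signals. GCGTG was found in the windows of FUT1, NCOA1 and LEPR, 3 of the 10 candidates, and in 27.7% of the 19497 windows of protein-coding genes of the same length. In FUT1 it begins 54 bases before the start, and LEPR holds 2 matches. AAGGTCA and TTCNNNGAA were in 0 of the 10 windows and in 2.50% and 4.72% of all windows. The matches are descriptions of letters in these windows.

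MUC4 encodes a membrane mucin of wet epithelia that can bind the receptor kinase ERBB2. It lies on the plus strand of chromosome 13 (chr13:134192412-134248435). MUC4 was at 0.0299, 0.0176 and 0.0474 FPKM in SLS, from 8, 4 and 11 reads, and at 0.107, 0.0749 and 0.170 FPKM in LLS, from 27, 20 and 24 reads. Every LLS ovary was above every SLS ovary, at levels below 0.2 FPKM, where 3 reads are worth 0.0112 to 0.0212 FPKM. Among the 23564 genes above 0 FPKM in any ovary, 557 had all LLS ovaries above all SLS ovaries (2.36%).

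The means of MUC4 were 0.0317 ± 0.0149 FPKM in SLS and 0.117 ± 0.0481 FPKM in LLS (SD, n = 3 each), 3.70 times higher in LLS, and 0.0909 FPKM over ZD5 and ZD7. The exact test gave p = 0.1, the smallest it can give. The nearest ovaries of the groups were within counting error of each other, with exact 95% Poisson intervals of 0.0237 to 0.0848 FPKM in ZD12 and 0.0457 to 0.116 FPKM in ZD7. On the recovered reads of all genes the log2 fold change was 1.77 by edgeR's quasi-likelihood test (adjusted p = 0.999) and 1.79 by DESeq2 (adjusted p = 0.9996). The markers of tubal and glandular epithelium also summed to more in every LLS ovary (11.3 to 30.0 FPKM) than in any SLS ovary (2.09 to 6.91 FPKM), but this separation rested on EPCAM, which was at 27.8 FPKM in ZD5. Without EPCAM the sums were 4.55, 1.75 and 5.63 FPKM in SLS and 2.26, 1.57 and 11.8 FPKM in LLS, which overlapped, and PAEP and FOXJ1 were at or near 0. MUC4 was highest in ZD8, where EPCAM was at 2.31 FPKM, and the part of these cells in MUC4 was not tested.

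MUC1, the most widespread membrane mucin, was also low, at 0.0626, 0.00738 and 0.187 FPKM in SLS and at 0.0795, 0.0125 and 0.225 FPKM in LLS. ERBB2 was at 12.7, 7.21 and 15.2 FPKM in SLS and at 8.23, 9.16 and 30.2 FPKM in LLS. Both had overlapping groups with ZD8 highest. Of the 19 genes of the mucin list 4 were tested and 0 were called, with a median log2 fold change of -0.15. MCAM, an adhesion protein of vessel walls also named MUC18, had the smallest p, at 22.8, 25.3 and 16.6 FPKM in SLS and at 13.5, 19.0 and 10.4 FPKM in LLS, with overlap through ZD12 and ZD7 and a log2 fold change of -0.58 ± 0.31 (SE, adjusted p = 0.999).

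**Figure D4:**
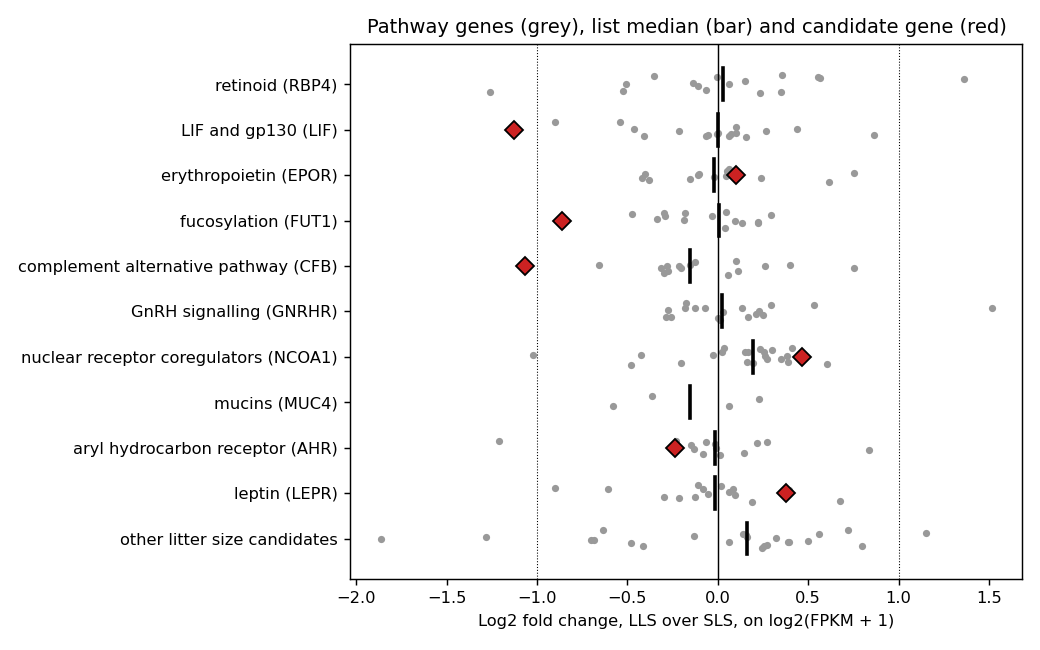
Log2 fold change of LLS over SLS on the scale of log2(FPKM + 1) (x axis) of the tested genes in each of the 11 lists (grey points), with the list median (black bar), the candidate gene where it was tested (red diamond) and the fold change threshold of 1 (dotted lines). The medians lie between -0.16 and 0.20, and LIF, FUT1 and CFB lie below every gene of their lists.

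Over the 11 lists together, 163 of 240 genes were tested, each counted once, and 0 were called. An unadjusted p under 0.05 was reached by 2 that were higher and 3 that were lower in LLS (3.07% of the 163, against 1.76% of all tested genes), and the median log2 fold change was 0.04. Without ZD8 it was -0.11, against -0.10 over all tested genes. Of the 163, 15 then had an unadjusted p under 0.05 by limma, beside 721 of all 12260 tested genes. LIF, FUT1 and CFB lay below each tested gene of their own lists with all 6 ovaries, as the plot of the pathway lists shows, and LIF was at -0.037 without ZD8. Other genes that pig genetics has tied to litter size formed the last list, of which 23 of 44 were tested and 0 were called, with a median log2 fold change of 0.16. Without ZD8 the median of this list was -0.057, with 9 fold changes above 0 and 14 below. ESR1, the oestrogen receptor, was at 8.19, 7.98 and 13.4 FPKM in SLS and at 6.75, 6.63 and 33.1 FPKM in LLS. PRLR, the prolactin receptor, was below 0.2 FPKM in all ovaries but ZD8, where it was at 1.16 FPKM.

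INHA, the alpha subunit of inhibin, which restrains FSH and so the number of follicles that ripen, had the smallest p of that list. It was at 553, 376 and 726 FPKM in ZD2, ZD3 and ZD12 and at 285, 162 and 66.4 FPKM in ZD5, ZD7 and ZD8. The LLS ovaries all lay below the lowest SLS ovary, and ZD8 was lowest. The log2 fold change was -1.86 ± 0.58 (SE), with an unadjusted p of 0.0121 and an adjusted p of 0.999 by limma, and p = 0.1 in the exact test. INHA also stands in the granulosa marker list.

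Without ZD8, the genes with the smallest p in their lists kept their direction except GSTA1, which moved from -1.21 to 0.53. By limma the log2 fold change without ZD8 was 1.35 for EGR1 (adjusted p = 0.821), 1.17 for ALDH1A1 (0.532) and 1.04 for TFRC (0.327). For NCOA4 it was -0.84 (0.531), and for INHA it was -1.30 (0.355). Of the partners, STRA6 moved from 0.15 to -0.38, ERBB2 from 0.23 to -0.33 and ESR1 from 0.25 to -0.46, while IL6ST moved from 0.16 to 0.85 and CFD from -0.16 to -0.90. None of these was called by limma without ZD8. Some list medians also changed sign without ZD8. That of GnRH signalling moved from 0.02 to -0.036, that of the LIF list from 0.0036 to -0.061 and that of the leptin list from -0.02 to 0.034.

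The patterns most like the remaining candidates, by Pearson correlation over the 6 ovaries, were those of ZNF2 for EPOR (0.999), IMP3 for CFB (0.995) and DSC2 for LEPR (0.992). For EPOR, 1255 of 12259 genes were above 0.95, against 34 for CFB, 23 for FUT1 and 13 for LEPR. With 6 points that share 1 outlying library, these correlations describe the libraries and carry no p.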

How the data were processed

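The candidate genes and the gene lists were chosen with earlier results of these data known. Ovarian RNA was depleted of ribosomal RNA and sequenced by strand, and small RNA was sequenced from each ovary in a library of its own. Per the paper's methods and the labels, the authors trimmed reads with NGSQCToolkit and mapped them with HISAT2 to Sscrofa11.1; the program that counted reads on genes is not given in the sources used here. The authors deposited FPKM per gene, and for miRNAs reads scaled to the library total (RPM), which served only to compare libraries.

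The deposited FPKM values gave whole reads for 23477 of 23564 genes above 0 (99.6%, tolerance 0.001 reads), with the longest annotated transcript as length. All value columns were used. limma 3.58.1 (R 4.3.3) with a variance trend was run on log2(FPKM + 1), a scale that understates changes of low genes, for genes with at least 1 FPKM in at least 3 libraries. P-values were adjusted by Benjamini-Hochberg over all tested genes, and the thresholds were those of the study. For single genes, mean log2(FPKM + 1) was also put to an exact permutation test, two-sided. edgeR 4.0.16 (quasi-likelihood, TMM) and DESeq2 1.42.0, the study's tool for genes, were run on the recovered reads as alternatives because the values deposited were not counts. The tests were tried on simulated reads of genes well above the filter, with large changes and no outlying library. Those settings do not cover low genes, small changes or a library like ZD8.

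Named genes were the 10 candidates, the partners and the gene with the smallest p of each list, and for each tested candidate the gene with the highest Pearson correlation. Cell type markers were named only where a result turned on them. Other alternatives were a pseudocount of 0.1, no filter, median centring, TPM, array weights and leaving out each ovary. The Poisson intervals and the floor of 3 reads cover counting error only.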

Additional observations from a re-analysis of the deposited data

How the results depend on the processing

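No candidate gene was called by any fit at an adjusted p under 0.05; with the unadjusted p under 0.05 and the same fold threshold, 1 candidate passed (CFB), and 99 of all genes. Over all genes the count of 0 became 13 with array weights, 20 by DESeq2, 0 to 21 when each ovary was left out (21 without ZD8), and, in alternatives chosen after seeing the data, 197 by DESeq2 with ZD8 left out and 13 by DESeq2 without the filter. edgeR called 0 genes, with 220 at an unadjusted p under 0.05. Of 162 pathway genes, 3 were called by DESeq2 with ZD8 left out (1.85%, near the 1.61% of all genes in that fit: C3AR1, EPAS1 and UGT1A6, chosen after their values were seen) and 0 by the other settings. The smallest adjusted p of a candidate was 0.0766, for CFB by DESeq2 with ZD8 left out.

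FUT1, CFB, NCOA1 and LEPR kept their direction in all 17 alternatives, and FUT1 ranged from -1.07 to -0.71 and CFB from -1.83 to -0.80. LEPR ranged from 0.025 to 1.14, the highest by edgeR with ZD8 left out. NCOA1 ranged from 0.046 without ZD8 to 0.71 without ZD7, and was 0.086 with array weights. LIF turned to 0.081 (edgeR) and 0.068 (DESeq2) with ZD8 left out, ranged from -1.88 (without ZD7) to -0.037 (without ZD8) when each ovary was left out, and with all 6 ovaries was -0.079 with array weights and -0.49 by edgeR and by DESeq2. EPOR turned to -0.20 with array weights and to -0.23 (edgeR) and -0.24 (DESeq2) with ZD8 left out, and ranged from -0.17 to 0.23 when each ovary was left out. AHR turned to 0.60 with array weights and to 0.42 (edgeR) and 0.39 (DESeq2) with ZD8 left out, and ranged from -0.65 to 0.44 when each ovary was left out. The array weight of ZD8 was 0.135, against 0.597 to 2.27 for the others, and the cause of the other changes was not tested.

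No paired analysis was possible because the SLS and LLS ovaries come from different sows and share no replicate number. Nothing in the labels links an SLS ovary to an LLS ovary. MUC4 rests on 4 to 27 reads an ovary. With 3 ovaries a group, the p-values set the difference of the groups against the spread between these sows, and cover no other sows. For that spread, limma, edgeR and DESeq2 also draw on the other genes in the fit.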
